A study of Mus musculus with 6 samples.

Results

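Downstream-of-gene (DoG) regions lie just past the 3′ ends of genes. Reads in them are taken to come from transcription that has run on beyond the normal end of a gene, which was not tested here. The regions described here are the abundant ones, which were selected on their read counts: a region belongs if its counts in the 6 libraries of the series sum to 1620 or more. By this rule 418 of 1693 regions (24.7%) belong, and they hold 82.6% of all DoG reads of the 6 libraries together. The deposited table gives each region 6 counts and no name, position or length, so a region is called here by its place in that table, its host gene and sequence are not analysed here, and levels of different regions cannot be put per length. The sum holds the counts of both genotypes, so a region could also enter through a high count in 1 of them.

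The cells were 3T3-L1, a mouse embryonic fibroblast line used as a model of preadipocytes, undifferentiated, in log-phase growth and kept below full confluence. Total RNA depleted of ribosomal RNA was sequenced from 3 wild-type libraries and 3 libraries with Ube3d knocked out, which the titles call biological replicates. The labels give both genotypes the same culture conditions and name no treatment. They do not say whether the knockout line is a single clone, which part of Ube3d was removed or how separate the cultures were. P-values thus measure only the spread between these samples, which may be technical.

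When RNA polymerase II passes the polyadenylation signal of a gene, the endonuclease CPSF73 cuts the nascent RNA, and the exonuclease XRN2 then digests the downstream piece until the polymerase is released. If cutting or release is slow, the polymerase reads on and leaves DoG transcripts, which are known from cells under osmotic stress, heat shock and viral infection. UBE3D, a ubiquitin ligase, is known to bind CPSF73. The comparison of knockout with wild type therefore asks how reads past gene ends change when it is reduced.

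The libraries held between 23767181 and 29389480 gene counts. Levels of genes and of DoG regions are given as CPM, counts per 1000000 gene counts of the same library, and changes are knockout over wild type. Ube3d, listed as Ube2cbp (chromosome 9, 86307234 to 86464916, minus strand, GRCm38), was lower in the libraries labelled knockout, at 1.90 ± 0.318 CPM against 6.78 ± 0.895 (SD, n = 3; log2 −1.85, edgeR adjusted p = 2.6e-15). The 8 fibroblast and preadipocyte markers averaged between 146 and 3881 CPM, whereas among 8 markers of leukocytes, epithelium, endothelium and mature fat cells the highest, Cd68, averaged 3.06 and Epcam had 0 counts. The first list summed to between 9094 and 9318 CPM in the knockout and between 10497 and 10702 in wild type, the second to between 3.64 and 5.21 and between 2.57 and 3.71. Of the fibroblast genes 6 were called lower and 1 (Dlk1) higher, and Cd68 was called higher; the part of these differences in the DoG results was not tested. In bulk RNA, fewer cells of a type and less RNA per cell cannot be told apart.

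Wild-type replicate 2 stood somewhat apart over the abundant regions. The chi-square per region was 7.01 and 7.03 between it and the other wild-type libraries, against 2.50 between those and 2.26 to 3.45 between knockout libraries. It had the highest wild-type level in 251 of the 418 regions and in 170 of the 247 called higher in the knockout. Without it, 263 regions were called higher and 53 lower, against 247 and 55 with all libraries. Of all 1671 regions tested without it, 1309 were called higher and 78 lower. Among the knockout libraries, replicate 1 had the highest level in 276 of the 418 regions. Without knockout replicate 1, 234 abundant regions were called higher and 55 lower, beside 1191 and 79 of all 1670 tested. The precursor of ribosomal RNA, Rn45s, also moved with genotype, taking 7.99% ± 0.833 of wild-type and 9.99% ± 0.281 of knockout gene counts (SD, n = 3). With Rn45s left out of the totals, 260 abundant regions were called higher and 48 lower, beside 1305 and 72 of all 1670 tested.

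Reads in the abundant regions were higher in the knockout when summed. They came to 24983, 24174 and 23608 CPM in the knockout libraries and to 21054, 22093 and 21686 in wild type. All 3 knockout libraries lay above all wild-type libraries, by 1.12-fold on average (two-sided exact permutation test, p = 0.10, the smallest that 3 against 3 allows). The regions below the threshold differed by more in sum, at 3479 ± 274 CPM in wild type against 6140 ± 284 with the knockout (SD, n = 3), or 1.76-fold higher, again without overlap (exact permutation p = 0.10).

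The abundant regions held a smaller share of DoG reads in the knockout. Their share was 79.4%, 80.2% and 79.8% in the knockout libraries and 86.6%, 85.4% and 86.5% in wild type. The difference of −6.34 percentage points was many times the SD of 0.395 and 0.683 within the genotypes (exact permutation p = 0.10, the smallest possible). Of the net gain of 5305 CPM in DoG reads, 2644 (49.8%) came from the 418 abundant regions and 2661 from the 1275 others. Leaving out the 6 most read regions, an alternative chosen after the data were seen, gave a share of 72.7% ± 0.348 in the knockout and 80.3% ± 0.748 in wild type.

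**Figure D1:**
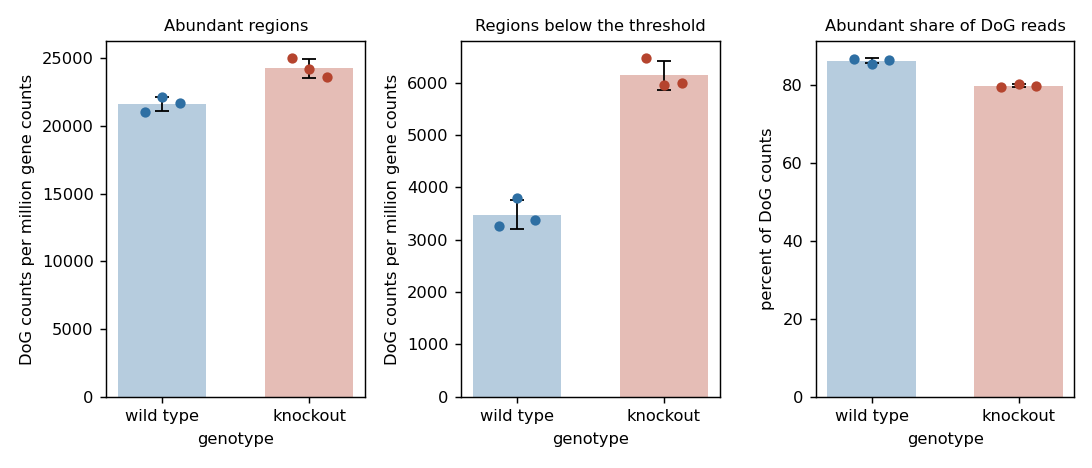
DoG level in CPM in the abundant regions (left) and in the regions below the threshold (middle), and the percent of DoG counts in the abundant regions (right). Points are single libraries, bars are means of 3 and error bars are SD; the abundant regions go from a mean of 21611 to 24255 while their share goes from 86.1% to 79.8%.

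Region by region, 247 of the 418 abundant regions (59.1%) were higher in the knockout, 55 (13.2%) were lower and 116 (27.8%) were not called (edgeR quasi-likelihood test, adjusted p under 0.05 over the 1670 regions tested). Over all tested regions 76.0% were called higher and 4.79% lower, so the share called higher was below this background and the share called lower above it, a difference that was not itself tested. Of the 80 DoG regions called lower in the whole table, 55 (68.8%) were abundant, and of the 1270 called higher, 247 were. Of these 55 falls, 30 were under 1.25-fold. At changes of at least 2-fold, 5 of the 15 regions called lower and 77 of the 581 called higher (13.3%) were abundant. The median log2 change was 0.35 (1.28-fold), with a range from the 5th to the 95th percentile of −0.35 to 1.66. Over all tested regions the median was 0.78, over those below the threshold 0.87, and over 12947 tested genes 0.01. When the libraries were scaled by their DoG totals instead, which asks for a change in share, 184 abundant regions (44.0%) were higher and 152 (36.4%) lower, beside 60.3% and 12.4% of all regions tested on that scaling.

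The changes spread widely between regions compared with their own error. The SD of the log2 change over the 418 regions was 0.64, against 0.67 below the threshold. The median SE of a single region was 0.09, against 0.18 below the threshold. Replicates of an abundant region had a median coefficient of variation of 5.20% in the knockout and 7.08% in wild type. The genotypes did not overlap in most abundant regions: the knockout was above in 253 (60.5%) and below in 60 (14.4%), against 76.3% and 5.09% of all tested regions.

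How a region entered the set bears on these counts. Of the 418, 95 had wild-type counts that summed to less than 810, the threshold divided evenly between the genotypes. They passed through their knockout counts, so 94 of them being called higher says nothing on its own. Of the other 323, 153 (47.4%) were called higher and 55 (17.0%) lower, with a median log2 change of 0.14. Choosing regions on wild-type counts alone, with 810 as the threshold, gave 327 regions, of which 153 (46.8%) were higher and 59 (18.0%) lower. Choosing them on knockout counts alone gave 503, of which 335 (66.6%) were higher and 52 (10.3%) lower.

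At the edge of the set, region 1176 was just inside with a summed count of 1622 and a level of 13.9 ± 0.856 CPM in the knockout and 6.25 ± 0.5 in wild type (SD, n = 3). Region 643, with a summed count of 1624, had 11.1 ± 0.218 and 9.08 ± 0.498. Just outside, region 838 summed to 1616 with 8.91 ± 0.624 and 11.2 ± 0.453, and region 945 to 1611 with 14.5 ± 3.28 and 5.56 ± 1.40. Both regions inside had wild-type sums under 810 (503 and 727) and entered through their knockout counts, which favoured higher values in the knockout.

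The median change was smaller in regions with more reads. In the 104 abundant regions with the lowest summed counts, from 1622 to 2096, the median log2 change was 0.79, with 80 called higher and 5 lower. The next 105 had a median of 0.63, with 79 higher and 6 lower, and the 104 after them a median of 0.14, with 48 higher and 16 lower. In the 105 most read regions, from 5878 to 408230 summed counts, the median was 0.04, with 40 higher, 28 lower and 37 not called. These 105 held 74.6% of the reads of the set. In 4 groups formed by wild-type count instead, the medians ran 1.00, 0.50, 0.12 and −0.01. A region with few wild-type reads could be in the set only with many knockout reads, as for the 95 with a wild-type sum under 810. The choice itself thus favours high values in the low groups of the wild-type ranking. Groups ranked by summed count are cut on that sum alone, and the regions below the threshold had a median of 0.87. The 95 regions had a median summed count of 1864, so most of them lie in the lowest of these groups. The calls of those regions say nothing on their own there either. The order of either ranking is only a description. Across the 418 regions Spearman's rho between log2 change and count was −0.443 for the summed, −0.678 for the wild-type and −0.198 for the knockout count; all regions share the 6 libraries, and the change and each count share reads, so these values are descriptions.

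**Figure D2:**
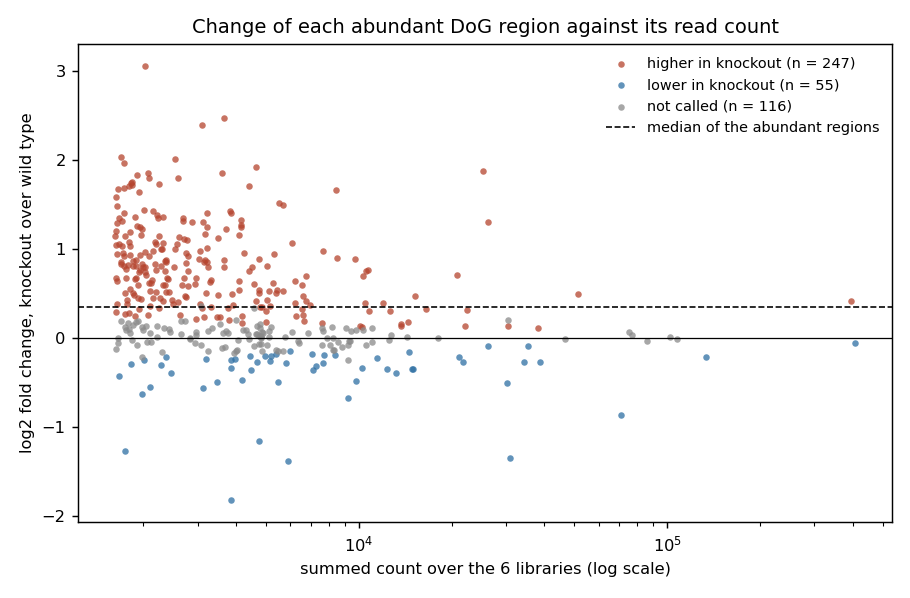
Log2 change of each of the 418 abundant regions (vertical axis) against its summed count over the 6 libraries (horizontal axis, log scale), coloured by the edgeR call. The dashed line is the median of 0.35; regions with the fewest reads reach log2 changes of 3.05, while most of the most read regions lie near 0.

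**Figure D3:**
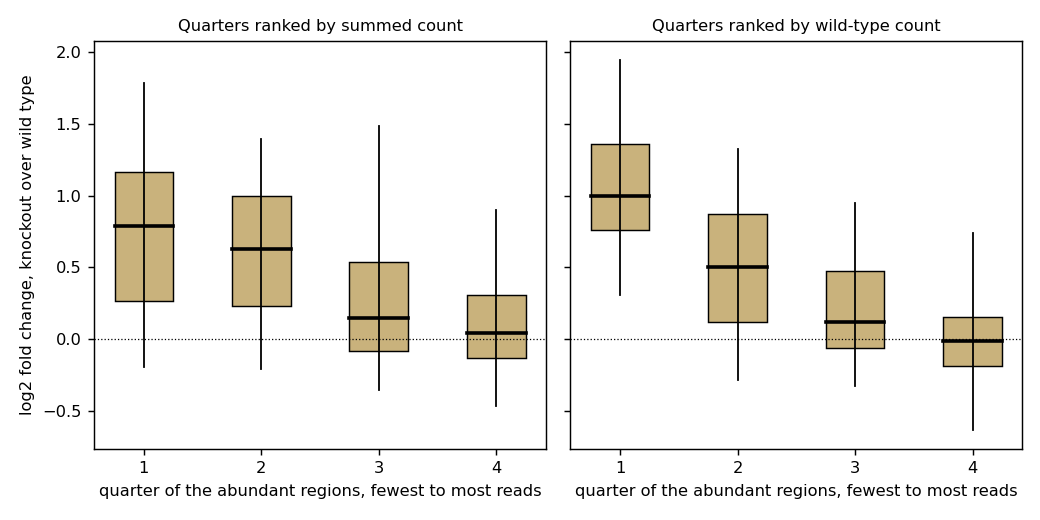
Log2 change of the abundant regions in 4 groups of 104 or 105 from fewest to most reads, ranked by summed count (left) or by wild-type count (right). Boxes span the 25th to 75th percentiles, thick lines are medians and thin lines run from the 5th to the 95th percentile; medians go from 0.79 to 0.04 on the left and from 1.00 to −0.01 on the right, where the choice of regions on summed counts favours rises in the low groups.

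The 6 regions with the largest rises each had a wild-type sum under 810 and entered the set through their knockout counts, so their folds describe what the choice let in and are given without a test. The largest was in region 961. It had 24.9, 22.2 and 20.6 CPM in the knockout libraries and 2.19, 3.50 and 2.35 in wild type. The knockout libraries were all far above, by 8.31-fold (log2 3.05, SE 0.13), on wild-type counts of 52, 103 and 63 reads. Region 1082 had 42.5, 36.5 and 36.1 CPM in the knockout and 6.10, 7.89 and 6.78 in wild type, a 5.51-fold rise (SE 0.10 on the log2 scale). In region 1599 the levels were 35.6, 30.6 and 31.0 against 5.60, 6.53 and 6.37, or 5.24-fold (SE 0.10). In each of these 3 regions knockout replicate 1 was the highest library. The 6 rises were taken only from called regions whose genotypes did not overlap, so the gap between the groups was part of the choice.

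Rises of about 4-fold followed in regions 1438, 1148 and 1163. Region 1438 went from 4.12, 4.56 and 3.76 CPM in wild type to 17.5, 15.6 and 17.7 in the knockout (4.07-fold, SE 0.12). Region 1148 went from 5.72, 7.42 and 5.62 to 28.3, 22.6 and 25.1 (4.03-fold, SE 0.11), and region 1163 from 5.13, 3.98 and 4.21 to 17.6, 16.3 and 17.7 (3.89-fold, SE 0.12). All 3 had low wild-type levels and, as the choice required, no overlap between the genotypes. In all, 5 abundant regions were called at least 4-fold higher, 72 between 2-fold and 4-fold and 84 between 1.5-fold and 2-fold. Another 55 lay between 1.25-fold and 1.5-fold and 31 below 1.25-fold. Called at least doubled were thus 77 of the 418, beside 581 of all 1670 tested regions. Of these 77, 50 were among the 95 regions that entered through their knockout counts, so their doubling says nothing on its own. The other 27 were among the 323 regions whose wild-type counts sufficed.

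Among regions whose wild-type counts alone sufficed, region 720, named after its values were seen, had 260, 238 and 240 CPM in the knockout and 59.8, 76.1 and 64.7 in wild type. Its rise of 3.68-fold (log2 1.88, SE 0.08, edgeR adjusted p = 1.6e-08) came on a summed count of 25183, of which 5397 were wild-type reads. The genotypes did not overlap.

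The largest fall was in region 1284, with 11.7, 10.5 and 9.63 CPM in the knockout libraries and 35.6, 38.1 and 38.7 in wild type. Every knockout library was below every wild-type library, and the level was 3.53-fold lower (log2 −1.82, SE 0.09, edgeR adjusted p = 3.0e-25). Region 1123 had 21.8, 20.1 and 18.9 CPM against 48.2, 53.9 and 56.5 (2.61-fold lower, SE 0.07). Region 809 had 106, 115 and 104 against 268, 273 and 285 (2.54-fold lower, SE 0.04). The last is among the most read regions of the table, so falls were not restricted to regions with few reads.

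Region 1273 fell from 14.6, 15.2 and 16.4 CPM in wild type to 6.77, 5.95 and 6.45 (2.41-fold, SE 0.11). Region 676 fell from 41.1, 41.0 and 40.6 to 18.8, 18.8 and 17.8 (2.22-fold, SE 0.08). Region 1098 fell from 554, 566 and 590 to 314, 326 and 302 (1.82-fold, SE 0.04, edgeR adjusted p = 2.0e-27). Region 1273, with a knockout sum of 514, entered through its wild-type counts. In all, 5 of the 418 regions were called at least halved, beside 15 of all 1670 tested regions. Of the other falls in the set, 3 lay between 1.5-fold and 2-fold, 17 between 1.25-fold and 1.5-fold, and 30 below 1.25-fold. Regions called lower had a median summed count of 5878, above the 2661 of regions called higher and the 4648 of those not called.

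**Figure D4:**
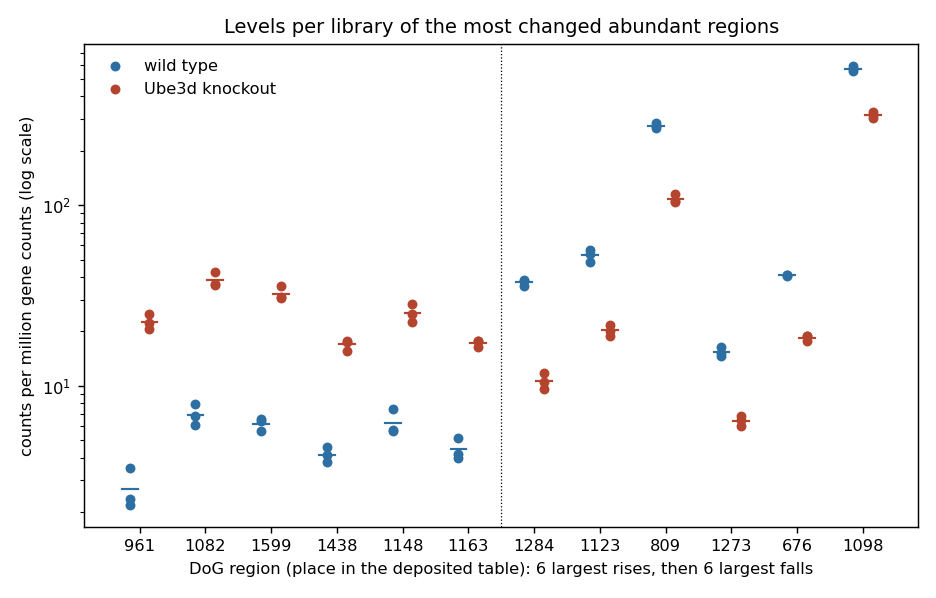
Level of a region in each library, in CPM (log axis), for the 6 abundant regions with the largest rise (left of the dotted line) and the 6 with the largest fall (right). Points are the 3 libraries of a genotype and short lines their means. The 12 were taken only from called regions whose genotypes do not overlap, so the gap between genotypes is part of the choice. Region 961 goes from a mean of 2.68 to 22.6 and region 1284 from 37.4 to 10.6.

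Reads were concentrated in few regions, and the median change of the most read ones was near 0. Of the 418, 20 regions held 50% of the reads and 241 held 90%. Among the 20, with at least 26290 summed counts each, 4 were called higher, 9 lower and 7 were not called, with a median log2 change of −0.02 and a median SE of 0.04. Their changes ran from −1.35 in region 809 to 0.49 in region 420, named after its values were seen, which had 386, 370 and 367 CPM in the knockout and 269, 265 and 263 in wild type. The share of the set's reads held by the top 6 was 32.7% ± 0.484 in the knockout and 34.5% ± 0.658 in wild type.

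Regions 1629 and 307 together held 21.9% ± 0.389 of the set's reads in the knockout and 21.8% ± 0.291 in wild type, but they behaved differently. Region 1629, the most read, had 2581, 2525 and 2370 CPM in the knockout and 2589, 2568 and 2637 in wild type, so that the groups overlapped. Its call as lower was borderline (log2 −0.06, SE 0.03, edgeR adjusted p = 0.041), and it was lost with DESeq2 (adjusted p = 0.37) and with Rn45s out of the totals (log2 −0.03, adjusted p = 0.31), as well as without KO replicate 3 (log2 −0.03, adjusted p = 0.34), without WT replicate 2 (log2 −0.07, adjusted p = 0.080) and without WT replicate 3 (log2 −0.05, adjusted p = 0.12). Among other alternatives, region 1629 kept its call with TMM factors (edgeR adjusted p = 0.0081), RLE factors (edgeR adjusted p = 0.014) and limma-voom (adjusted p = 0.0041). Scaled by DoG totals it was lower by more (log2 −0.34, edgeR adjusted p = 3.2e-10). Region 307 had 2863, 2872 and 2722 against 2052, 2175 and 2097, and all knockout libraries were above (1.34-fold, SE 0.03, edgeR adjusted p = 9.4e-20). Region 307 alone gained 712 CPM, 18.4% of the 3869 gained by all abundant regions called higher.

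Below these, region 1322 had 775, 781 and 762 CPM in the knockout and 871, 886 and 931 in wild type, a fall of 1.16-fold (SE 0.03, edgeR adjusted p = 4.9e-08) with no overlap. Region 697 had 680, 663 and 658 against 678, 657 and 683, and region 1076 had 642, 640 and 641 against 655, 625 and 625. Region 425 had 527, 549 and 522 against 529, 548 and 552. In these last 3 the genotypes overlapped, and the 95% intervals of the log2 change, −0.08 to 0.05, −0.05 to 0.08 and −0.10 to 0.04, leave room only for small changes on this scaling. Scaled by DoG totals, all 3 were called lower, with log2 changes of −0.29 (697), −0.26 (1076) and −0.30 (425) and edgeR adjusted p of 1.3e-07, 1.3e-06 and 6.2e-08.

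Gains and losses within the set were set off against each other. The 247 regions called higher gained 3869 CPM in sum, the 55 called lower came to −1298, and the 116 not called gained 73.6. The 10 largest gains made up 36.0% of the first sum, with region 720 second at 179. Of the losses, 42.1% came from regions 1098 (−256 CPM, knockout minus wild type), 809 (−167) and 1322 (−123). Regions called higher held 34.0% of the set's reads in wild type and 46.2% in the knockout, those called lower 35.2% and 26.0%, and those not called 30.8% and 27.8%. The called regions were grouped by the direction of this same change, so the signs of their sums follow from the grouping. The shifts in share are likewise only a description. Those called higher include 94 regions that entered through their knockout counts.

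For the 116 regions not called, the fit could often bound the change. Their fitted log2 changes ran from −0.25 to 0.36. In 90 of them the 95% interval lay within 1.25-fold in either direction. The 4 nearest to 0 were regions 899 (10.3 ± 0.343 CPM in the knockout and 10.3 ± 1.07 in wild type), 1170 (49.2 ± 2.12 and 49.2 ± 1.63), 121 (17.6 ± 0.903 and 17.6 ± 1.53) and 623 (29.9 ± 0.891 and 30.0 ± 1.24; SD, n = 3 throughout). Scaled by DoG totals, these 4 were called lower too, at log2 changes from −0.28 to −0.27. The least certain, region 1256, named after its values were seen, had 20.6, 41.9 and 20.8 CPM in wild type, where replicate 2 stood at about double the others, and 30.5, 29.3 and 33.7 in the knockout. Its interval of −0.75 to 1.07 shows neither a change nor its absence. Calls were also made for small changes: 61 called regions, 31 higher and 30 lower, had a fitted change under 1.25-fold.

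Genes that act in cutting, termination and the control of readthrough went both ways in the gene counts. All 20 genes of a list were tested, and by edgeR (adjusted p under 0.05) 8 rose and 8 fell, where 31.1% of all tested genes were called higher and 29.9% lower. The median log2 change of the list was −0.01, against 0.01 over all tested genes. Within the cleavage machinery, the scaffold gene Sympk rose (log2 0.26, SE 0.03), as did Cpsf3, which encodes CPSF73 (log2 0.32, SE 0.04), while Cpsf2, its inactive homologue in the complex, was not called (log2 0.04). Of the factors that bridge cleavage and termination, Pcf11 rose (log2 0.41, SE 0.04) and Clp1, an RNA kinase bound to it, fell (log2 −0.56, SE 0.07).

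Xrn2, the exonuclease that releases the polymerase, fell from 307 ± 16.7 to 207 ± 4.69 CPM (log2 −0.57, SE 0.03). The helicase gene Dhx9 fell (log2 −0.17). Of the phosphatase module that slows the polymerase past the cut, its scaffold gene Ppp1r10 rose (log2 0.16) and Tox4 fell (log2 −0.17), while Ppp1ca (log2 −0.04) and Wdr82 (log2 0.02) were not called; Zc3h4, a termination factor that binds WDR82, rose by 0.14. The elongation kinase gene Cdk9 fell (log2 −0.46, SE 0.04) and the elongation factor gene Supt5 rose (log2 0.10). Among proteins that bind the polymerase tail, Rprd1a rose (log2 0.40) and Rprd1b fell (log2 −0.25), Scaf8 fell (log2 −0.16), and Scaf4 was not called (log2 −0.06). Srrt, the ARS2 gene of the cap-binding machinery, fell by 0.08 on the log2 scale (adjusted p = 0.024). The DoG regions carry no host names, so these genes cannot be set beside particular regions, and whether the host gene of a region changed was not tested.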

How the data were processed

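The authors deposited raw counts of reads per gene and raw counts of reads per DoG region, both whole numbers, for the same 6 libraries. Stranded libraries were made after depletion of ribosomal RNA, per the labels' protocols. The submitters' processing notes name STAR 2.6.1d, featureCounts 1.6.3, mm10 and GRCm38 without saying which step made which file. No source used here says how DoG regions were defined. The gene table also gives exon length in bases, per the file headers, which was not used.

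The 418 regions and the gene lists were chosen with earlier results of these data known. The table of 1693 regions was fitted with edgeR 4.0.16 in R 4.3.3 (quasi-likelihood F test, robust; filterByExpr defaults, minimum count 10 and total 15, which left 1670, all 418 among them). Library sizes were the gene totals, with no further factor. P-values were two-sided and Benjamini-Hochberg adjusted over all regions, or over 12947 genes, with calls under 0.05. The SE was taken as the size of the log2 change over the root of F. Sums and shares per library had exact permutation tests (SciPy 1.17.1). The regions named were the 6 largest rises and falls among called regions without overlap, the 6 most read, the 4 not called nearest to 0 and 2 on each side of the threshold; every called gene of the 20 was named, except 1 that is not reported here. The fit was tested on simulated data. Alternatives were TMM and RLE factors, totals without Rn45s, DoG totals, DESeq2 1.42.0, limma-voom 3.58.1, no filter, a replicate block, each library left out, and other ways to choose the regions.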

Additional observations from a re-analysis of the deposited data

How the results depend on the processing

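With TMM or RLE factors, totals without Rn45s, DESeq2, limma-voom and no filter, between 238 and 260 of the 418 regions were called higher and between 48 and 64 lower. Of all 1670 regions tested (1686 with no filter), between 1209 and 1305 were then called higher and between 72 and 91 lower. Leaving out 1 library each time gave 234 to 263 higher, 45 to 60 lower and medians of 0.31 to 0.40. Of all regions tested (1670 or 1671), 1191 to 1309 were then called higher and 69 to 87 lower. With 1 library left out, the summed reads of the set differed by 0.14 to 0.19 on the log2 scale. The share of DoG reads differed by −6.74 to −6.14 percentage points. Scaling by DoG totals, which removes the common rise by construction, gave 152 of the 418 lower (36.4%) and a median of 0.0791. On that scaling 12.4% of all regions tested were lower. The other results that moved follow from which regions were taken: at a threshold of 810, 528 were higher with a median of 0.59; at 3240, 91 and 0.0923; chosen on wild-type counts, 153 and 0.13; chosen on knockout counts, the median was 0.52. Under these 4 choices in turn the summed reads differed by 0.22, 0.0977, 0.12 and 0.20 (log2), and the share of DoG reads by −3.34, −9.04, −8.82 and −4.71 points. The termination list had 7 or 8 calls in each direction under each alternative run for it.

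Same-numbered libraries deviated with correlations of −0.187, −0.294 and −0.051, and differently numbered ones with correlations of −0.155 to 0.264. With 3 libraries per genotype these values cannot decide whether the numbers pair the samples. With the replicate block, 241 regions were higher and 49 lower, beside 1244 and 74 of all 1670 tested. The summed reads differed by 0.17 (log2) and the share by −6.34 points (exact permutation p = 0.25, the smallest that 3 pairs allow). Region 1629 was no longer called (log2 −0.06, edgeR adjusted p = 0.051).

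Regions not called near 0 switched sign. Region 1076 stood at −0.0097 with TMM, −0.0047 with RLE and −0.26 with DoG totals. On DoG totals regions 1076, 121, 425, 623, 697, 899 and 1170 were all called lower, with edgeR adjusted p of 1.3e-06, 0.0045, 6.2e-08, 0.00036, 1.3e-07, 0.015 and 0.00011. Without Rn45s in the totals, regions 121, 425, 623, 697, 899 and 1170 stood at 0.0303, 0.0039, 0.0291, 0.0196, 0.0324 and 0.0303. Region 899 stood at 0.0001 with DESeq2, 0.0032 with limma-voom, 0.0038 with the block, and between −0.0661 and 0.0795 with 1 library left out. Region 121 stood at 0.0011 with the block. With 1 library left out, region 121 ran from −0.0428 to 0.0747, region 623 from −0.0239 to 0.0326 and region 1170 from −0.0362 to 0.0266. The call of region 643 was lost without WT replicate 3 (log2 0.25, adjusted p = 0.073) and with DoG totals (0.02). The 6 largest rises and 6 largest falls kept their direction and call under every alternative run. At this depth the median half-width of a 95% interval was 0.17 (log2) for regions not called.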
